A study of Mus musculus with 7 samples.

Results

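A set of 37 genes of protein folding in the endoplasmic reticulum (ER), of ER stress and of the ATF4 response was followed in wild-type mouse cells and in lines labelled as knockouts of Ago2, an Argonaute protein that carries small RNAs to their target transcripts. The genes were named by symbol, with no measured value in the rule, but they were chosen with earlier results of these data known. All 37 were found among the 43629 gene identifiers of the count table. All 37 passed the filter on low counts and stand among the 18426 genes tested. By role they comprise 14 genes of folding, 3 genes of ER-associated degradation (ERAD), 4 transcription factors, the 3 response genes Trib3, Chac1 and Sesn2, 8 genes of amino acid and one-carbon metabolism, and 5 cytosolic tRNA synthetases. The folding and ERAD genes together are called the ER arm below (17 genes), and the last 3 roles the ATF4 arm (16 genes).

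The cells fall into 3 groups that share the E14 129/Ola background. KO XEN cells came from the Ago2 knockout lines C4 and 5-3, with 1 library each, after 5 days in RPMI with serum, beta-mercaptoethanol, activin A at 10 ng/mL and retinoic acid (all-trans) at 0.1 µM, a treatment directed at extra-embryonic endoderm (XEN). WT XEN cells, with 2 libraries called A and B, are wild-type cells that had the same treatment. KO ESC are undifferentiated Ago2 knockout embryonic stem cells grown on gelatine with serum, beta-mercaptoethanol and 100 U/mL LIF, with 1 library of line C4 and 2 of line 5-3 (5-3_1 and 5-3_2). KO XEN against WT XEN compares knockout with wild-type cells after differentiation, and KO XEN against KO ESC asks what differentiation changes in knockout cells. In the first, genotype and cell line change together, as no line holds both genotypes. An effect of the knockout and a difference between lines cannot be told apart there. In WT XEN against KO ESC, genotype and differentiation change together and cannot be told apart; wild-type ES cells were not analysed here. The labels do not say how the knockout lines were made. Nor do they say whether WT XEN A and B, or KO ESC 5-3_1 and 5-3_2, stem from separate cultures, so the spread within these pairs may be technical. Libraries of C4 and 5-3 are of different lines, and the spread between them includes any difference between the lines. The p-values measure only the spread between these libraries.

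The ER folds secreted and membrane proteins with chaperones such as BiP and with enzymes that form disulfide bonds, and it sends misfolded proteins back to the cytosol for degradation. When folding lags, 3 sensors (IRE1, PERK and ATF6) start the unfolded protein response: IRE1 splices the Xbp1 transcript, ATF6 is cut to release a transcription factor, and PERK phosphorylates eIF2alpha, which favours translation of Atf4. Other eIF2alpha kinases reach ATF4 too, for example on amino acid shortage, and ATF4 then drives genes of amino acid supply, one-carbon metabolism and tRNA charging. Extra-embryonic endoderm is a strongly secretory tissue that lays down basement membrane.

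Library totals ran from 13941826 counts (KO XEN C4, the shallowest) and 33389566 in KO XEN 5-3, through 36427340 and 38595537 in WT XEN, to between 39998808 and 48650113 in KO ESC. Ago2 itself had 122 and 9.94 CPM (counts scaled to the size of the library) in KO XEN C4 and 5-3, against 394 and 432 CPM in WT XEN; KO ESC had 94.4 CPM in line C4, and 9.37 and 9.65 CPM in line 5-3. Ago2 did not pass between KO XEN and WT XEN (-2.66 ± 1.36 on the log2 scale, adjusted p = 0.145). Line C4 thus kept more Ago2 reads than line 5-3 at both stages, and the labels do not say which part of the gene was altered. Of 10 extra-embryonic endoderm markers, 9 were lower in KO XEN than WT XEN, and their summed level was 2618 and 3447 CPM in KO XEN against 28431 and 46358 CPM in WT XEN, and between 373 and 414 CPM in KO ESC. Fibroblast and mesenchyme markers summed to 10162 and 12482 CPM in KO XEN against 1790 and 779 CPM in WT XEN, and between 29.9 and 30.8 CPM in KO ESC. There 2 of the 8 were at 0. Cell division markers summed to 310 and 271 CPM in KO XEN against 1439 and 2017 CPM in WT XEN, and between 2156 and 3121 CPM in KO ESC. Mitochondrial transcripts made up 0.781% and 0.979% of KO XEN counts, 1.94% and 2.64% of WT XEN counts, and between 2.79% and 3.26% of KO ESC counts. Against WT XEN, KO XEN was higher in 6 and lower in 1 of the 8 fibroblast markers, lower in 7 of 8 cell division markers, higher in 4 of 6 neural markers and lower in 6 of 8 ES cell markers. These differences lie along the same group boundaries as every result below, and their part in those results was not tested. In bulk RNA, fewer cells of a type and less RNA per cell cannot be told apart.

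Some of the members' promoters hold known stress elements, and these mostly differ between the arms. On mm10, Hspa5 (ENSMUSG00000026864) lies at chr2:34771970-34777547 on the plus strand, Hsp90b1 (ENSMUSG00000020048) at chr10:86690209-86705509 on the minus strand, Chac1 (ENSMUSG00000027313) at chr2:119351229-119354381 on the plus strand and Asns (ENSMUSG00000029752) at chr6:7675169-7693254 on the minus strand. RefSeq promoter windows on GRCm38.p6 (the mm10 assembly), each reaching from 250 bases before to 50 bases after the start, were held for 31 of the 37 members and were searched on both strands for the letters of 4 known elements. The ER stress response element (ERSE, CCAAT and CCACG with 9 bases between), the site through which ATF6 acts together with NF-Y, was in 7 of 15 ER-arm genes, in 0 of 13 ATF4-arm genes and in 0.137% of all 27025 genes with a window. Its relative ERSE-II (ATTGG and CCACG with 1 base between) was in Dnajb11 and Herpud1, against 0.0444% of all genes. The CEBP-ATF response element, at which ATF4 binds with a CEBP partner (CARE, TGATGNAA), was in 5 of 13 ATF4-arm genes (Aars, Asns, Chac1, Gars and Trib3) and 1 ER-arm gene (Herpud1), against 4.51% of all genes. The core of the XBP1 element (TGACGTGG) was in no member's window and in 0.714% of all genes. A match is a match of letters only, and no 2 different elements overlapped in a member's window. The stretches below are a selection of the sites before the start, 5′ to 3′ on the strand of the gene, with the element in capitals. The CARE of Trib3 and the ERSE-II of Dnajb11 lie after the start and are not shown. Nor are the ERSE of Canx, Creld2 and Dnajc3 and the CARE of Aars. Hspa5, Hsp90b1, Calr and Pdia6 show the ERSE (Hsp90b1 at 2 places), Herpud1 shows the CARE and then ERSE-II, and Chac1, Asns and Gars show the CARE. In Herpud1, Chac1 and Gars the CARE lies on the strand opposite to the gene, as does the ERSE of Calr and the proximal one of Hsp90b1. The stretches of Hspa5 and Asns lie before the RefSeq start but overlap exons of the same genes in the GENCODE annotation, from which the gene coordinates above were taken.
Hspa5 (chr2:34772020-34772048, plus strand): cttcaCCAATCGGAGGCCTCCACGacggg
Hsp90b1 distal (chr10:86705633-86705661, minus strand): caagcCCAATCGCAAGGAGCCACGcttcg
Hsp90b1 proximal (chr10:86705528-86705556, minus strand): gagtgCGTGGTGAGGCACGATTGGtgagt
Calr (chr8:84847050-84847118, minus strand): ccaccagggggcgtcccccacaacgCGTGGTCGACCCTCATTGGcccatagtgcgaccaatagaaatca
Pdia6 (chr12:17266466-17266534, plus strand): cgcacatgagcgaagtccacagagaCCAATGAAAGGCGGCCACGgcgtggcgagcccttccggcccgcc
Herpud1 (chr8:94386292-94386412, plus strand): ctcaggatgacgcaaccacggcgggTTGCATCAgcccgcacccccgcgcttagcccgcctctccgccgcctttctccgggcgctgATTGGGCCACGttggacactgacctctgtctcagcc
Chac1 (chr2:119351024-119351081, plus strand): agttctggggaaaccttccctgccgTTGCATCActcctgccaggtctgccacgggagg
Asns (chr6:7693220-7693237, minus strand): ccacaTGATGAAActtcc
Gars (chr6:55037946-55038000, plus strand): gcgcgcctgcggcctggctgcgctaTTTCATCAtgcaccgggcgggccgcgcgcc

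After differentiation, most members took a smaller share of the RNA in knockout than in wild-type cells. Between KO XEN and WT XEN, 30 of the 37 members were lower (adjusted p below 0.05) and 0 were higher, where 23.9% of all genes tested were lower and 22.3% higher, 46.2% either way. The median log2 fold change was -1.13 over the members and 0.00 over all genes tested. In the ER arm 13 of 17 genes were lower, with a median of -0.93, and in the ATF4 arm 15 of 16, with a median of -2.19. Set against KO ESC, the arms parted. Between KO XEN and KO ESC, 7 ER-arm genes were higher and 2 lower, whereas 1 ATF4-arm gene was higher and 13 lower, where 34.8% of all genes were higher and 34.3% lower, 69.0% either way. The medians were 0.29 in the ER arm, -1.78 in the ATF4 arm and -0.08 over all genes. Between WT XEN and KO ESC, 15 ER-arm genes and 9 ATF4-arm genes were higher and none of either arm was lower, where 32.2% of all genes were higher and 30.3% lower, 62.5% either way. There the medians were 1.01 in the ER arm, 0.71 in the ATF4 arm and -0.03 over all genes. Each group enters 2 of the 3 comparisons, so they are not independent of each other.

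**Figure D1:**
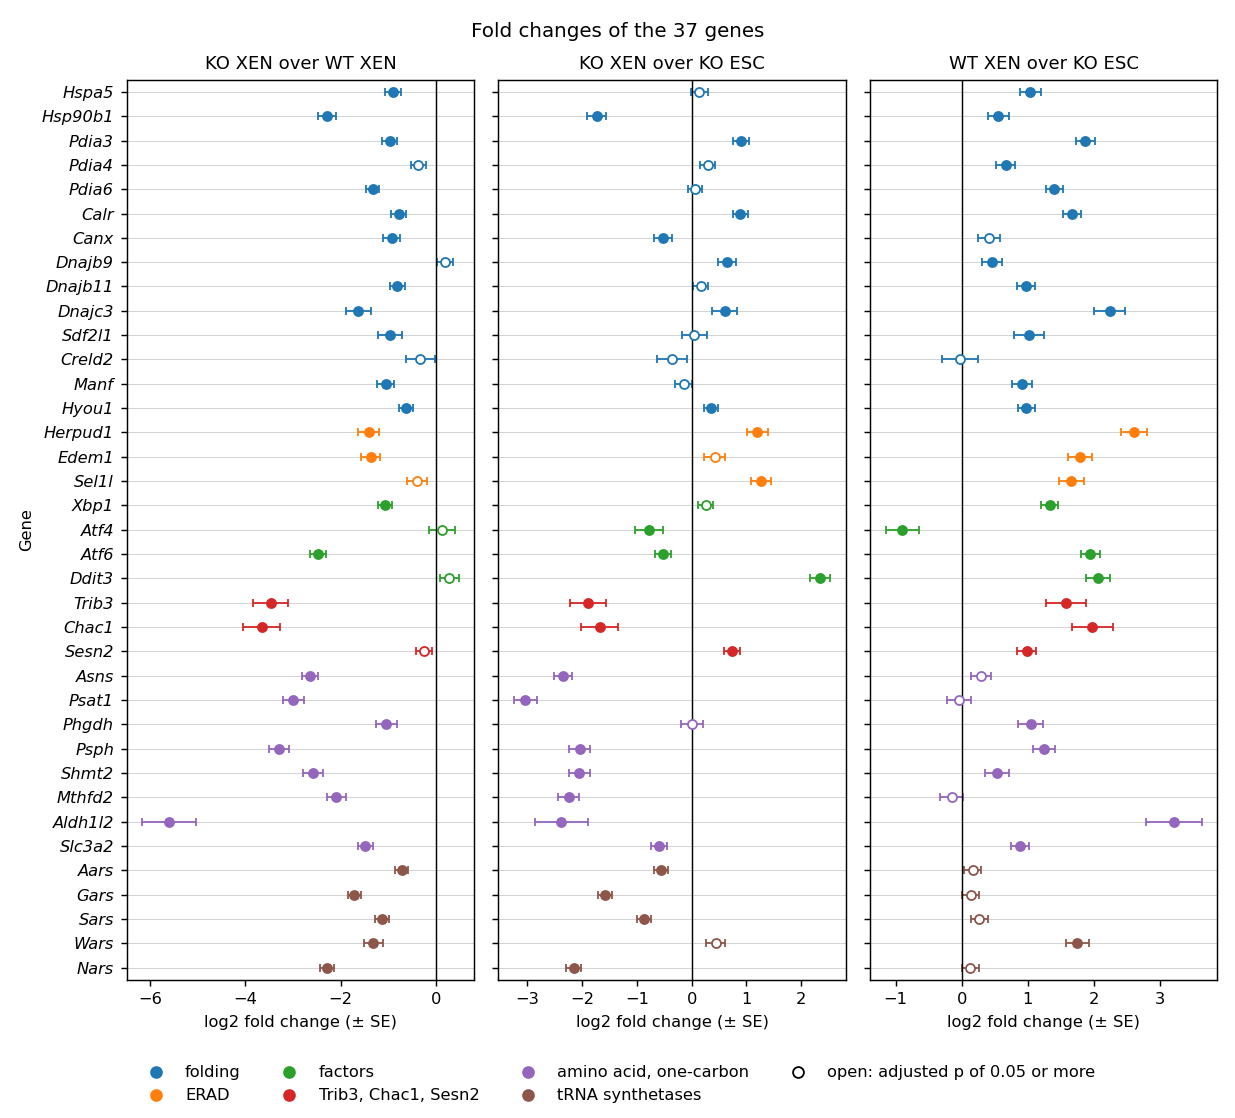
Log2 fold change ± SE of each of the 37 genes (rows, coloured by role) in KO XEN over WT XEN, KO XEN over KO ESC and WT XEN over KO ESC, with open points where the adjusted p was 0.05 or more. In the first panel 30 points are filled and all of these lie left of 0; in the second the ATF4-arm points lie mostly left of 0 and the ER-arm points on both sides; in the third 27 filled points lie right of 0 and that of Atf4 lies left.

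Among the 4 transcription factors, 2 fell in KO XEN against WT XEN and the transcripts of 2 others, Atf4 and Ddit3, did not pass the test. Atf4 encodes the factor for which the ATF4 arm is named. It had 240.2 and 299 CPM in KO XEN against 239 and 258 CPM in WT XEN, and 311, 559 and 521 CPM in KO ESC. KO XEN and WT XEN overlapped, with a log2 fold change of 0.12 ± 0.27 (SE; 95% interval -0.51 to 0.75; adjusted p = 0.757), and both groups lay below all 3 KO ESC libraries. Against KO ESC, Atf4 was lower in KO XEN with a log2 fold change of -0.78 ± 0.25 (adjusted p = 0.0246) and in WT XEN with one of -0.90 ± 0.26 (adjusted p = 0.0156). The first call ended when KO ESC 5-3_1 (adjusted p = 0.0689) or KO XEN C4 (0.149) was left out or when 5-3_1 and 5-3_2, libraries of the same line, were summed as 1 (0.0648), and the second when KO ESC 5-3_1 (0.0541), WT XEN A (0.0983) or WT XEN B (0.0600) was left out.

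Ddit3 encodes CHOP, a factor induced by ATF4 that is linked to cell death under lasting ER stress. Its level was 29.4 and 31.4 CPM in KO XEN against 22.4 and 27.9 CPM in WT XEN, and 6.07, 5.69 and 6.20 CPM in KO ESC. All 4 XEN libraries thus lay far above the 3 KO ESC libraries. The rise over KO ESC was 2.34 ± 0.18 on the log2 scale in KO XEN (adjusted p = 1.55e-05) and 2.07 ± 0.18 in WT XEN (adjusted p = 4.58e-05). KO XEN against WT XEN gave 0.27 ± 0.20 (95% interval -0.18 to 0.73; adjusted p = 0.287). Exons of Gm4189, Mars and a second annotated Ddit3 identifier cover 6.13% of the Ddit3 exons on the same strand and 4.73% on the other. The second Ddit3 identifier is not among those counted, so no reads were assigned to it. Reads in the rest of the overlap could have been assigned to either gene or to neither.

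Xbp1, whose spliced transcript encodes the factor of the IRE1 branch, had 122 and 124 CPM in KO XEN against 234 and 286 CPM in WT XEN, and 105, 104 and 100.2 CPM in KO ESC. WT XEN stood apart from the rest. KO XEN was 2.11-fold lower than WT XEN (log2 fold change -1.08 ± 0.15, adjusted p = 0.00105), while KO XEN against KO ESC did not pass (0.26 ± 0.14, adjusted p = 0.126). Gene-level counts do not tell the spliced from the unspliced Xbp1 transcript. Atf6, which encodes the membrane-bound sensor and factor, had 57.4 and 56.8 CPM in KO XEN against 290.1 and 345 CPM in WT XEN, and 80.7, 76.3 and 90.0 CPM in KO ESC. KO XEN lay below both other groups without overlap, 5.56-fold lower than WT XEN (-2.48 ± 0.16, adjusted p = 0.000131) and 1.44-fold lower than KO ESC (-0.53 ± 0.14, adjusted p = 0.0117). Leaving out KO XEN C4 ended the second of these calls (adjusted p = 0.0586). WT XEN was 3.86-fold higher than KO ESC in Atf6 (1.95 ± 0.14, adjusted p = 2.08e-05).

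**Figure D2:**
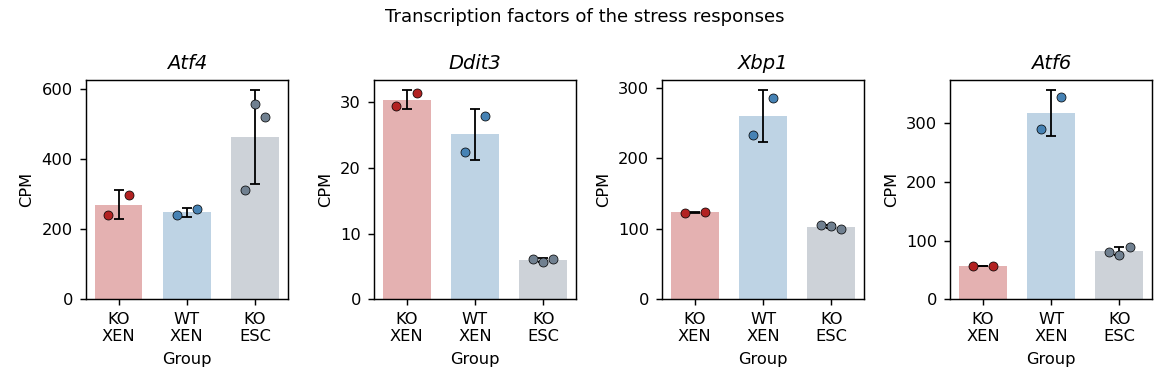
CPM of Atf4, Ddit3, Xbp1 and Atf6 in KO XEN, WT XEN and KO ESC; bars are group means, error bars SD (n = 2, 2 and 3) and points single libraries. Atf4 is highest in KO ESC, Ddit3 is high in both XEN groups, and Xbp1 and Atf6 are highest in WT XEN.

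Most genes of ER folding were higher in WT XEN than in both other groups. Of the 14, 11 were lower in KO XEN than WT XEN, 12 were higher in WT XEN than in KO ESC, and 7 did not pass between KO XEN and KO ESC. Their summed level was 5203 and 5388 CPM in KO XEN against 10439 and 11199 CPM in WT XEN, and 4837, 5062 and 5131 CPM in KO ESC. Hspa5 encodes BiP, the main HSP70 chaperone of the ER lumen and the most used readout of ER stress. It had 891 and 847 CPM in KO XEN against 1627 and 1614 CPM in WT XEN, and 658, 856 and 854 CPM in KO ESC. KO XEN was 1.86-fold lower than WT XEN (-0.90 ± 0.17, adjusted p = 0.00429), and WT XEN was 2.05-fold higher than KO ESC (1.04 ± 0.16, adjusted p = 0.000701). KO XEN and KO ESC overlapped (0.14 ± 0.16, 95% interval -0.23 to 0.50, adjusted p = 0.455).

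Pdia6, a protein disulfide isomerase that works with BiP, followed the same pattern more widely: 385 and 352 CPM in KO XEN against 902 and 954 CPM in WT XEN, and 335, 375 and 346 CPM in KO ESC. It was 2.52-fold lower in KO XEN than WT XEN (-1.33 ± 0.15, adjusted p = 0.000397). KO XEN overlapped KO ESC. Manf, a small secreted ER stress protein that binds BiP, had 90.5 and 103 CPM in KO XEN against 214 and 188 CPM in WT XEN, and 91.7, 113 and 116 CPM in KO ESC. It was 2.08-fold lower in KO XEN than WT XEN (-1.06 ± 0.17, adjusted p = 0.00205), and exons on the opposite strand cover 8.85% of its exons. Dnajb11, a J-domain partner of BiP, had 91.0 and 85.4 CPM in KO XEN against 157 and 152 CPM in WT XEN, and 71.0, 80.0 and 84.8 CPM in KO ESC. The log2 fold change in KO XEN over WT XEN was -0.81 ± 0.15 (adjusted p = 0.00343). In Sdf2l1, a subunit of BiP complexes, KO XEN had 14.4 and 15.4 CPM, WT XEN 33.7 and 24.6 CPM, and KO ESC 11.6, 16.8 and 14.9 CPM. Of the 11 calls it was the one that ended when a library was left out: the log2 fold change against WT XEN was -0.97 ± 0.25 (adjusted p = 0.0156), and the adjusted p was 0.0699 without WT XEN A, 0.0808 without KO XEN C4 and 0.0576 without KO XEN 5-3.

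A second pattern had KO XEN between the other groups. Calr, the calcium-binding lectin chaperone calreticulin, had 1240.4 and 1409 CPM in KO XEN against 2270 and 2297 CPM in WT XEN, and 665, 764 and 717 CPM in KO ESC. The 3 groups did not overlap: KO XEN was 1.72-fold lower than WT XEN (-0.79 ± 0.15, adjusted p = 0.00426) and 1.85-fold higher than KO ESC (0.89 ± 0.14, adjusted p = 0.000594). Pdia3, the disulfide isomerase that works with calreticulin and calnexin, had 956 and 990.2 CPM in KO XEN against 1861 and 1966 CPM in WT XEN, and 462, 541 and 565 CPM in KO ESC. Its steps were of like size, with a log2 fold change of -0.98 ± 0.16 against WT XEN (adjusted p = 0.0019) and 0.90 ± 0.14 against KO ESC (adjusted p = 0.000672). Hyou1, a large nucleotide-exchange chaperone, had 254 and 256 CPM in KO XEN against 417 and 372 CPM in WT XEN, and 197, 207 and 196 CPM in KO ESC. Dnajc3, the J-domain protein p58IPK that also inhibits PERK, had 65.2 and 66.2 CPM in KO XEN against 173 and 235 CPM in WT XEN, and 55.1, 33.2 and 41.2 CPM in KO ESC. Both were lower in KO XEN than WT XEN, Hyou1 at -0.63 ± 0.14 (adjusted p = 0.00734) and Dnajc3 at -1.63 ± 0.26 (adjusted p = 0.00174). Their excess over KO ESC was small and not firm. Hyou1 stood at 0.35 ± 0.12 (adjusted p = 0.0345) and lost the call when any library but WT XEN B was left out (adjusted p 0.0592 to 0.233). Dnajc3 stood at 0.61 ± 0.23 (adjusted p = 0.043) and lost it without WT XEN A (0.0544), KO XEN C4 (0.119), KO XEN 5-3 (0.174), KO ESC 5-3_1 (0.135) or KO ESC 5-3_2 (0.161). With DESeq2 the adjusted p was 0.0712 for Hyou1 and 0.0532 for Dnajc3, and with 5-3_1 and 5-3_2 summed it was 0.118 for Hyou1 and 0.111 for Dnajc3.

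In 2 folding genes KO XEN fell below KO ESC as well. Hsp90b1 encodes GRP94, the HSP90 chaperone of the ER, which folds integrins and Toll-like receptors among others. It had 304 and 361 CPM in KO XEN against 1415 and 1827 CPM in WT XEN, and 1127, 1046 and 1148 CPM in KO ESC. KO XEN was 4.87-fold lower than WT XEN (-2.29 ± 0.19, adjusted p = 0.000196) and 3.33-fold lower than KO ESC (-1.73 ± 0.17, adjusted p = 5.67e-05), with no overlap. WT XEN was above KO ESC by 0.55 ± 0.16 (adjusted p = 0.0173), a call that ended without WT XEN B (adjusted p = 0.106), KO ESC 5-3_1 (0.0735) or KO ESC 5-3_2 (0.0506), or with 5-3_1 and 5-3_2 summed (0.0668). Exons of other genes cover 5.38% of the Hsp90b1 exons on the same strand and 10.3% on the opposite strand. Canx, the membrane-bound lectin chaperone calnexin, had 555 and 474 CPM in KO XEN against 893 and 1067 CPM in WT XEN, and 839, 664 and 713 CPM in KO ESC. It was lower in KO XEN than WT XEN (-0.93 ± 0.18, adjusted p = 0.00448) and than in KO ESC (-0.52 ± 0.17, adjusted p = 0.023), and the call against KO ESC ended without KO XEN 5-3 (adjusted p = 0.0879).

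The 3 remaining folding genes did not pass between KO XEN and WT XEN. Pdia4, another disulfide isomerase, gave -0.37 ± 0.16 (adjusted p = 0.0828; 0.0404 without KO ESC C4), and Creld2, a disulfide isomerase-like ER stress gene, gave -0.33 ± 0.30 (adjusted p = 0.403). Dnajb9, a BiP partner that restrains IRE1, gave 0.19 ± 0.18 (adjusted p = 0.412). Dnajb9 was higher than in KO ESC in KO XEN (0.65 ± 0.16, adjusted p = 0.00682; 0.0935 without KO XEN 5-3) and in WT XEN (0.46 ± 0.16, adjusted p = 0.0342; 0.0509 to 0.133 without KO ESC 5-3_1, KO ESC 5-3_2, WT XEN A or WT XEN B, and 0.0894 with 5-3_1 and 5-3_2 summed). Creld2 passed in no comparison, although its difference from KO ESC in KO XEN, -0.36 ± 0.28 (adjusted p = 0.28), reached an adjusted p of 0.00737 without KO ESC C4. The 7 members with an ERSE in the window had log2 fold changes from -2.29 to -0.33 in KO XEN over WT XEN. All but Creld2 passed the test as lower, beside 13 of 17 in the ER arm and 23.9% of all genes tested. Against KO ESC, 2 of the 7 were higher and 2 lower in KO XEN (-1.73 to 0.89). Of all genes, 34.8% were higher and 34.3% lower there, so these counts are near those of all genes. Both members with ERSE-II were lower in KO XEN than WT XEN. Against KO ESC, 1 of these 2 was higher and 0 lower, too few to set beside those shares.

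The ERAD genes were higher in WT XEN than in KO ESC, 3 of 3, and 2 of 3 were lower in KO XEN than WT XEN. Herpud1, a membrane protein that gathers the degradation machinery, had 36.8 and 53.7 CPM in KO XEN against 116 and 125 CPM in WT XEN, and 17.0, 20.8 and 21.5 CPM in KO ESC. The groups did not overlap. KO XEN was 2.66-fold lower than WT XEN (-1.41 ± 0.22, adjusted p = 0.0016) and 2.3-fold higher than KO ESC (1.20 ± 0.19, adjusted p = 0.000819). Edem1, which hands misfolded glycoproteins to degradation, had 68.8 and 71.0 CPM in KO XEN against 147 and 215 CPM in WT XEN, and 58.5, 47.8 and 50.7 CPM in KO ESC. It was lower in KO XEN than WT XEN (-1.37 ± 0.21, adjusted p = 0.00145), and 0.42 ± 0.19 against KO ESC did not pass (adjusted p = 0.0762; 0.0345 without WT XEN B). Sel1l, the adaptor of the HRD1 ubiquitin ligase, had 152 and 159 CPM in KO XEN against 183 and 227 CPM in WT XEN, and 79.5, 53.3 and 61.5 CPM in KO ESC. Both XEN groups were above KO ESC, KO XEN by 1.27 ± 0.19 (adjusted p = 0.00054) and WT XEN by 1.66 ± 0.19 (adjusted p = 0.000179). KO XEN against WT XEN gave -0.40 ± 0.21 (adjusted p = 0.161; 0.0409 without KO ESC C4).

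**Figure D3:**
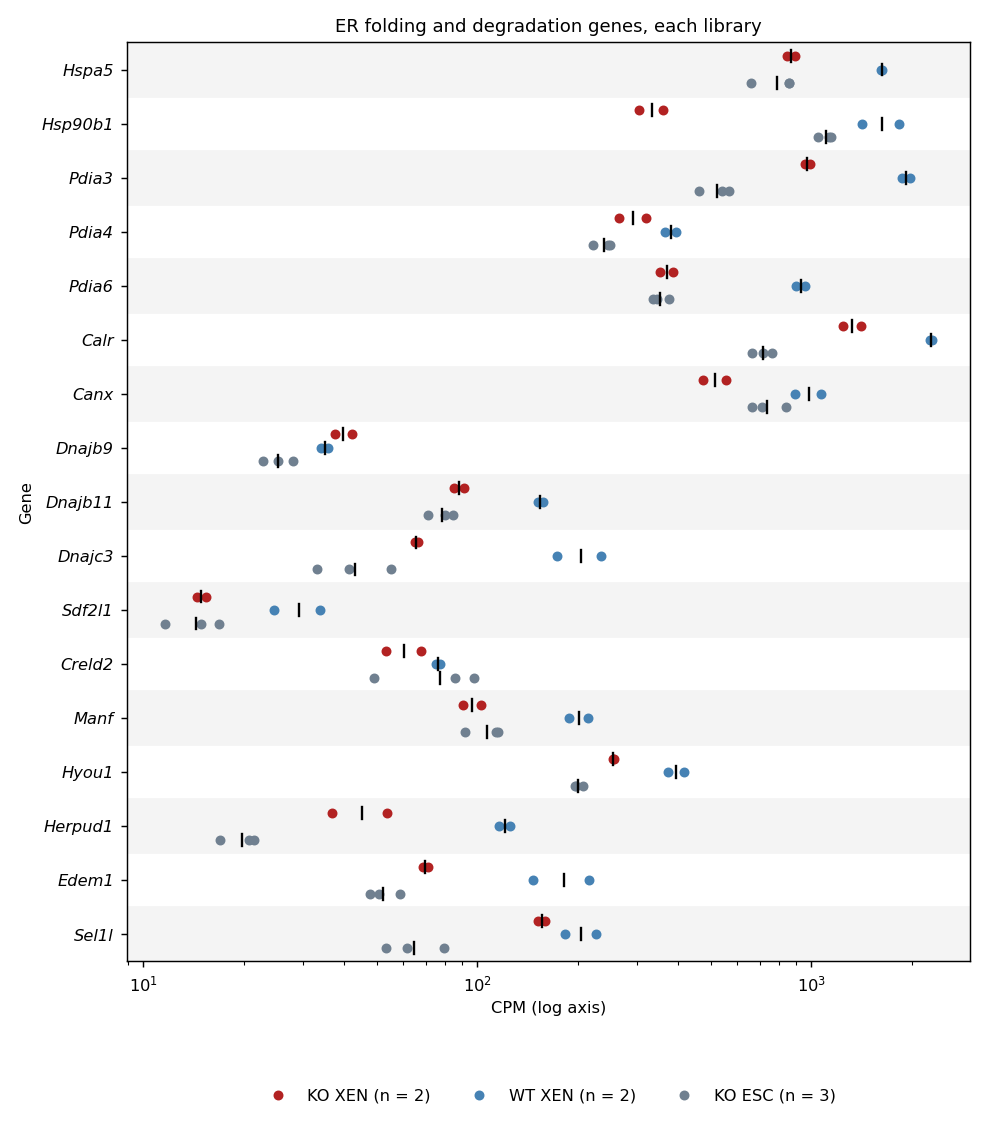
CPM (log axis) of the 17 ER-arm genes in each library of KO XEN, WT XEN and KO ESC; black ticks mark group means. WT XEN lies to the right for most genes, Hsp90b1 and Canx in KO XEN lie left of KO ESC, and for Calr, Pdia3 and Herpud1 KO XEN lies between the others.

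Most of the ATF4 arm passed as lower in KO XEN against both WT XEN and KO ESC, with Sesn2, Phgdh and Wars as the exceptions. Trib3 and Chac1, 2 of the genes most used as readouts of ATF4 activity, showed it most plainly among the 3 response genes. Trib3, a pseudokinase that binds ATF4 and CHOP and holds them back, had 6.24 and 13.0 CPM in KO XEN against 109 and 108 CPM in WT XEN, and 27.2, 38.5 and 43.0 CPM in KO ESC. KO XEN was 11.1-fold lower than WT XEN (-3.47 ± 0.37, adjusted p = 0.000361) and 3.7-fold lower than KO ESC (-1.89 ± 0.33, adjusted p = 0.00119). Chac1, an enzyme that breaks down glutathione, had 4.94 and 10.9 CPM in KO XEN against 97.8 and 106 CPM in WT XEN, and 19.2, 28.3 and 30.0 CPM in KO ESC. It was 12.6-fold lower in KO XEN than WT XEN (-3.65 ± 0.39, adjusted p = 0.000362) and 3.2-fold lower than in KO ESC (-1.68 ± 0.34, adjusted p = 0.00277). In both genes the 3 groups lay apart in the order KO XEN, KO ESC, WT XEN, and KO XEN 5-3 stood above KO XEN C4. The KO XEN C4 values rest on 86 counts for Trib3 and 68 for Chac1. Without KO XEN 5-3 the log2 fold change of Trib3 was -4.20 against WT XEN and -2.61 against KO ESC, and that of Chac1 was -4.45 against WT XEN and -2.47 against KO ESC.

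Sesn2, a stress-induced inhibitor of mTORC1 that senses leucine and is also a target of p53, was the ATF4-arm gene that did not pass between KO XEN and WT XEN. It had 305 and 316 CPM in KO XEN against 335 and 404 CPM in WT XEN, and 171, 205 and 183 CPM in KO ESC. The log2 fold change in KO XEN over WT XEN was -0.25 ± 0.16 (95% interval -0.62 to 0.12; adjusted p = 0.238), and KO XEN lay above KO ESC by 0.74 ± 0.15 (adjusted p = 0.00232). It was the ATF4-arm gene that rose in KO XEN against KO ESC while 13 others fell.

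All 8 genes of amino acid and one-carbon metabolism were lower in KO XEN than WT XEN, and 7 of the 8 were lower than in KO ESC. Their summed level was 525 and 609 CPM in KO XEN against 2755 and 2877 CPM in WT XEN, and 2171, 2086 and 2022 CPM in KO ESC. Asns, asparagine synthetase, had 100.2 and 111 CPM in KO XEN against 635 and 682 CPM in WT XEN, and 610.0, 517 and 490 CPM in KO ESC. KO XEN was 6.24-fold lower than WT XEN (-2.64 ± 0.17, adjusted p = 0.000131) and 5.11-fold lower than KO ESC (-2.35 ± 0.16, adjusted p = 9.68e-06). WT XEN against KO ESC did not pass (0.29 ± 0.15, adjusted p = 0.118; 0.0418 without KO ESC C4).

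Serine is made from a glycolytic intermediate by Phgdh, Psat1 and Psph in turn. Psat1, the transaminase, had 78.3 and 89.5 CPM in KO XEN against 547 and 787 CPM in WT XEN, and 745, 654 and 664 CPM in KO ESC. It was 7.95-fold lower in KO XEN than WT XEN (-2.99 ± 0.22, adjusted p = 0.000151) and 8.19-fold lower than in KO ESC (-3.03 ± 0.21, adjusted p = 9.33e-06), while KO ESC lay within the range of WT XEN. Psph, the phosphatase of the last step, had 13.1 and 19.0 CPM in KO XEN against 155 and 162 CPM in WT XEN, and 67.4, 62.3 and 69.9 CPM in KO ESC. It was 9.78-fold lower in KO XEN than WT XEN (-3.29 ± 0.21, adjusted p = 0.000131) and 4.11-fold lower than in KO ESC (-2.04 ± 0.19, adjusted p = 3.95e-05). Exons of Cct6a on the opposite strand cover 10.4% of its exons. Phgdh, the dehydrogenase of the first step, had 82.1 and 107 CPM in KO XEN against 229 and 161 CPM in WT XEN, and 92.6, 103 and 88.0 CPM in KO ESC. KO XEN overlapped KO ESC (0.01 ± 0.19, 95% interval -0.44 to 0.46), and it was 2.06-fold lower than WT XEN (-1.04 ± 0.22, adjusted p = 0.00568; 0.0546 without both C4 libraries).

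In the mitochondrial folate cycle, Aldh1l2, which oxidises formyl-tetrahydrofolate to make NADPH, had 1.52 and 3.60 CPM in KO XEN against 113 and 148 CPM in WT XEN, and 22.1, 9.53 and 10.5 CPM in KO ESC. Its fold change was the largest of the 37 genes, 48.2-fold lower in KO XEN than WT XEN (-5.59 ± 0.57, adjusted p = 0.000316), and it was 5.2-fold lower than in KO ESC (-2.38 ± 0.49, adjusted p = 0.00278). Without KO XEN 5-3 the log2 fold changes were -6.50 against WT XEN and -3.27 against KO ESC, and without both C4 libraries the second was -1.48. WT XEN was 9.27-fold higher than KO ESC (3.21 ± 0.42, adjusted p = 0.000349). The KO XEN C4 value rests on 21 counts, and exons of D10Wsu102e on the opposite strand cover 14.1% of its exons. Shmt2, which splits serine into glycine and a one-carbon unit, had 67.7 and 67.9 CPM in KO XEN against 457 and 355 CPM in WT XEN, and 230.0, 322 and 290 CPM in KO ESC. KO XEN was 5.99-fold lower than WT XEN (-2.58 ± 0.21, adjusted p = 0.000196) and 4.14-fold lower than KO ESC (-2.05 ± 0.20, adjusted p = 5e-05). The excess of WT XEN over KO ESC in Shmt2, 0.53 ± 0.18 (adjusted p = 0.0321), was lost without WT XEN A (adjusted p = 0.18), KO ESC C4 (0.065), KO ESC 5-3_2 (0.0785) or KO XEN 5-3 (0.0554), and with 5-3_1 and 5-3_2 summed (0.0579). Mthfd2, the dehydrogenase of the same cycle, was lower in KO XEN than WT XEN (log2 scale) at -2.09 ± 0.20 (adjusted p = 0.000266) and than in KO ESC at -2.25 ± 0.19 (adjusted p = 2.46e-05).

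Slc3a2, the heavy chain (4F2hc) of several amino acid exchangers at the cell surface, had 151 and 172 CPM in KO XEN against 493 and 408 CPM in WT XEN, and 244, 249.8 and 239.7 CPM in KO ESC. The groups lay apart, KO XEN 2.79-fold below WT XEN (-1.48 ± 0.16, adjusted p = 0.000373) and 1.51-fold below KO ESC (-0.60 ± 0.14, adjusted p = 0.00641; 0.0571 without KO XEN C4).

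The 5 tRNA synthetases, which charge tRNAs with their amino acids, were all lower in KO XEN than WT XEN, and 4 of 5 were lower than in KO ESC; between WT XEN and KO ESC only Wars passed. Nars, for asparagine, had 165 and 152 CPM in KO XEN against 733 and 805 CPM in WT XEN, and 730.3, 691 and 693 CPM in KO ESC. It was 4.86-fold lower in KO XEN than WT XEN (-2.28 ± 0.15, adjusted p = 0.000131) and 4.45-fold lower than in KO ESC (-2.15 ± 0.14, adjusted p = 7.51e-06). Gars, for glycine, had 232 and 221 CPM in KO XEN against 744 and 742 CPM in WT XEN, and 668, 696 and 669 CPM in KO ESC. It was 3.28-fold lower in KO XEN than WT XEN (-1.71 ± 0.14, adjusted p = 0.000191). Sars, for serine, had 213 and 220.0 CPM in KO XEN against 491 and 459.8 CPM in WT XEN, and 418, 397 and 368 CPM in KO ESC. It was 2.2-fold lower in KO XEN than WT XEN (-1.13 ± 0.14, adjusted p = 0.000674). For these 3 genes KO XEN lay far below 2 groups that lay close together.

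Wars, for tryptophan, had its lowest level in KO ESC. It had 190.1 and 165 CPM in KO XEN against 392 and 491 CPM in WT XEN, and 111, 142 and 141 CPM in KO ESC. KO XEN was 2.49-fold lower than WT XEN (-1.31 ± 0.19, adjusted p = 0.00127) and stood above all KO ESC libraries by 0.44 ± 0.17, which did not pass (adjusted p = 0.0513; 0.0443 without WT XEN B). Aars, for alanine, was lower in KO XEN than WT XEN (log2 scale) at -0.72 ± 0.14 (adjusted p = 0.00476) and than in KO ESC at -0.56 ± 0.13 (adjusted p = 0.00604). Exons of Exosc6 on the same strand cover 14.3% of its exons. The 5 ATF4-arm genes with a CARE in the window were all lower in KO XEN than in both other groups, as was Herpud1 against WT XEN but not against KO ESC. In the ATF4 arm as a whole, 15 of 16 genes were lower than in WT XEN and 13 of 16 lower than in KO ESC. Of all genes tested, 23.9% were lower in the first comparison and 34.3% in the second.

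**Figure D4:**
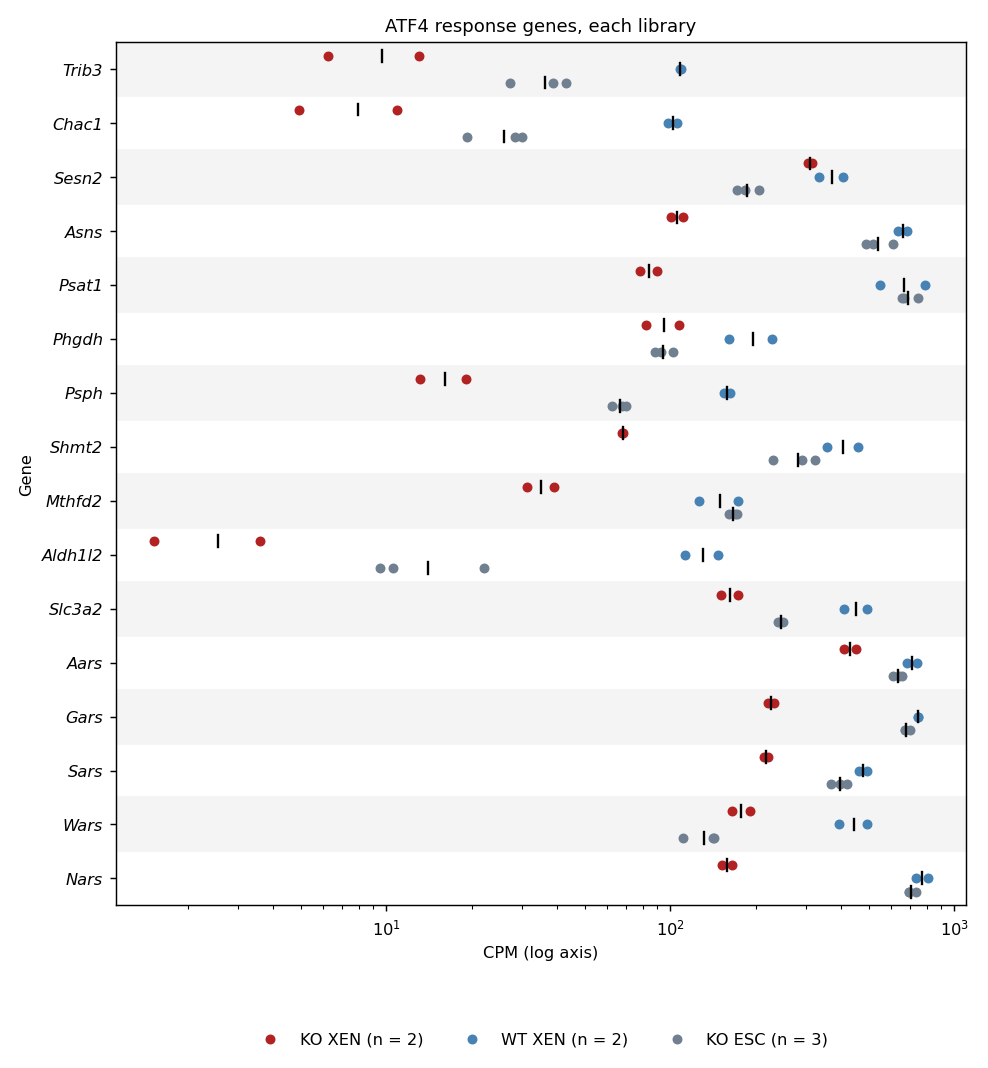
CPM (log axis) of the 16 ATF4-arm genes in each library of KO XEN, WT XEN and KO ESC; black ticks mark group means. KO XEN lies left of both other groups for all genes but Sesn2, Phgdh and Wars, and the spread between its 2 libraries is widest for Trib3, Chac1 and Aldh1l2.

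Levels compared between genes per kilobase of exon put Calr first in KO XEN (460.0 CPM per kb) and in WT XEN (793 CPM per kb), whereas Hsp90b1 (275 CPM per kb) came before Calr (248 CPM per kb) in KO ESC. Hsp90b1 stood at 82.5 CPM per kb in KO XEN and 402 CPM per kb in WT XEN. At the other end, Aldh1l2 was the lowest member per kilobase in KO XEN (0.341 CPM per kb) and in KO ESC (1.87 CPM per kb), and Dnajb9 in WT XEN (13.7 CPM per kb).

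The knockout lines C4 and 5-3, which kept different amounts of Ago2 RNA, were compared in their change from KO ESC to KO XEN. For this comparison KO XEN C4, KO XEN 5-3 and KO ESC C4 had 1 library each. The spread thus came only from the pairs WT XEN A and B, and KO ESC 5-3_1 and 5-3_2, and may be technical. The p-values and SE do not measure the spread between cultures of a line. The difference between the lines passed for 0 of 37 members and for 0.0% of the 19555 genes in that fit, which has 2 residual degrees of freedom; at an unadjusted p below 0.05 it held for 1 member and for 9.63% of genes. That member was Aldh1l2, with a log2 change of -3.86 in C4 and -1.48 in 5-3, a difference of -2.38 ± 0.40 (adjusted p = 0.295). The other ATF4-arm genes changed in the same direction in both lines with the exception of Phgdh (-0.18 in C4 and 0.17 in 5-3): Trib3 by -2.13 and -1.65, Chac1 by -1.96 and -1.42, Asns by -2.61 and -2.18, and Psat1 by -3.25 and -2.88. Hsp90b1 changed by -1.89 in C4 and -1.61 in 5-3.

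Genes near the members in function, taken from 10 further lists, were counted beside them. Of all genes tested, 22.3% were higher and 23.9% lower in KO XEN than WT XEN. Against KO ESC, 34.8% were higher and 34.3% lower in KO XEN, and 32.2% higher and 30.3% lower in WT XEN. The counts of each list are to be read beside these shares. Of 25 other ER folding genes, 17 were lower in KO XEN than WT XEN and 0 higher (median -0.80), 18 were higher in KO XEN than in KO ESC, and 24 were higher in WT XEN than in KO ESC. Ero1l, the oxidase that recharges disulfide isomerases, had 39.5 and 45.0 CPM in KO XEN against 375 and 397 CPM in WT XEN, and 109.8, 62.0 and 71.3 CPM in KO ESC. Its log2 fold change in KO XEN over WT XEN was -3.19 ± 0.28 (adjusted p = 0.00022). Dnajc10, an ER reductase, gave -2.04 ± 0.18 (adjusted p = 0.000212) and Uggt1, the glucosyltransferase that checks the fold of glycoproteins, -1.38 ± 0.15 (adjusted p = 0.000434) in the same comparison. Genes of translocation and glycosylation (12 of 22 lower, 0 higher, median -0.63) and of ER to Golgi transport (8 of 19 lower, 0 higher, median -0.20) had fewer calls. Among them Rpn2 and Stt3a, of the oligosaccharyltransferase, gave -1.01 ± 0.14 and -0.99 ± 0.16 (adjusted p = 0.000959 and 0.00175), Sec11c, of the signal peptidase, -1.69 ± 0.24 (adjusted p = 0.00113), Lman1, a cargo receptor, -1.36 ± 0.18 (adjusted p = 0.000752), and the coat genes Sec24a and Copb1 -2.14 ± 0.18 and -1.09 ± 0.17 (adjusted p = 0.000197 and 0.00183).

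Of 18 other ERAD genes, 5 were higher and 1 lower in KO XEN than WT XEN, where 22.3% of all genes were higher and 23.9% lower, so the count of higher genes is near that of all genes. Against KO ESC, 15 of the 18 were higher and 0 lower in KO XEN, and 14 were higher and 1 lower in WT XEN. Derl3, a channel component, had 17.1 and 19.2 CPM in KO XEN against 2.36 and 1.71 CPM in WT XEN, and 4.49, 3.87 and 4.32 CPM in KO ESC. Its log2 fold change over WT XEN was 3.15 ± 0.29 in KO XEN (adjusted p = 0.000234). Ube2j1, an ERAD ubiquitin-conjugating enzyme, gave 1.39 ± 0.28 (adjusted p = 0.00501), while the mannosidase gene Man1b1 was the 1 lower, at -0.46 ± 0.16 (adjusted p = 0.0456). Of 15 sensors and regulators of the unfolded protein response, 5 were lower and 1 higher in KO XEN than in WT XEN. This stands beside 23.9% lower and 22.3% higher of all genes. The median log2 fold change of the 15 was 0.13, so the list as a whole did not fall. Ppp1r15b, a regulatory subunit of the eIF2alpha phosphatase, gave -1.65 ± 0.15 (adjusted p = 0.000239), Mbtps2, a protease that releases ATF6, -1.75 ± 0.35 (adjusted p = 0.00523), and Eif2ak3, which encodes PERK, -0.77 ± 0.16 (adjusted p = 0.00647); Atf6b, the paralogue of Atf6, gave 0.91 ± 0.20 (adjusted p = 0.0073).

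Of 24 other ATF4 response genes, 20 were lower and 2 higher in KO XEN than in WT XEN (median -1.94), and 12 were lower and 5 higher than in KO ESC. Slc7a3, a cationic amino acid transporter, had 2.54 and 4.37 CPM in KO XEN against 239 and 254 CPM in WT XEN, and 415, 358 and 331 CPM in KO ESC. KO XEN over WT XEN came to -6.11 ± 0.29 (adjusted p = 5.77e-05). Gpt2, which makes alanine, gave -3.15 ± 0.21 (adjusted p = 0.000131) and Cth, which makes cysteine, -2.16 ± 0.15 (adjusted p = 0.000151). Cebpb, which encodes a partner of ATF4, and Ddit4, an inhibitor of mTORC1, were the 2 higher, by 2.03 ± 0.43 (adjusted p = 0.00608) and 1.31 ± 0.43 (adjusted p = 0.0364). Of 15 other cytosolic tRNA synthetases, 11 were lower and 0 higher in KO XEN than in WT XEN, 14 were lower and 1 higher than in KO ESC, and 5 were lower and 0 higher in WT XEN than in KO ESC. Eprs, Lars and Farsb gave -2.42 ± 0.19, -2.29 ± 0.20 and -1.77 ± 0.15 against WT XEN (adjusted p = 0.000182, 0.000209 and 0.000196). Of 12 other folate and serine cycle genes, 8 were lower and 2 higher in KO XEN than in WT XEN. Sfxn1, the mitochondrial serine carrier, gave -2.50 ± 0.17 (adjusted p = 0.000151), Shmt1, the cytosolic counterpart of Shmt2, -2.22 ± 0.14 (adjusted p = 0.000131) and Gcsh, of the glycine cleavage system, -2.08 ± 0.16 (adjusted p = 0.000161). Mthfd2l, the paralogue of Mthfd2, and Amt, also of glycine cleavage, were the 2 higher, by 2.11 ± 0.37 and 1.36 ± 0.36 (adjusted p = 0.0028 and 0.0155).

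**Figure D5:**
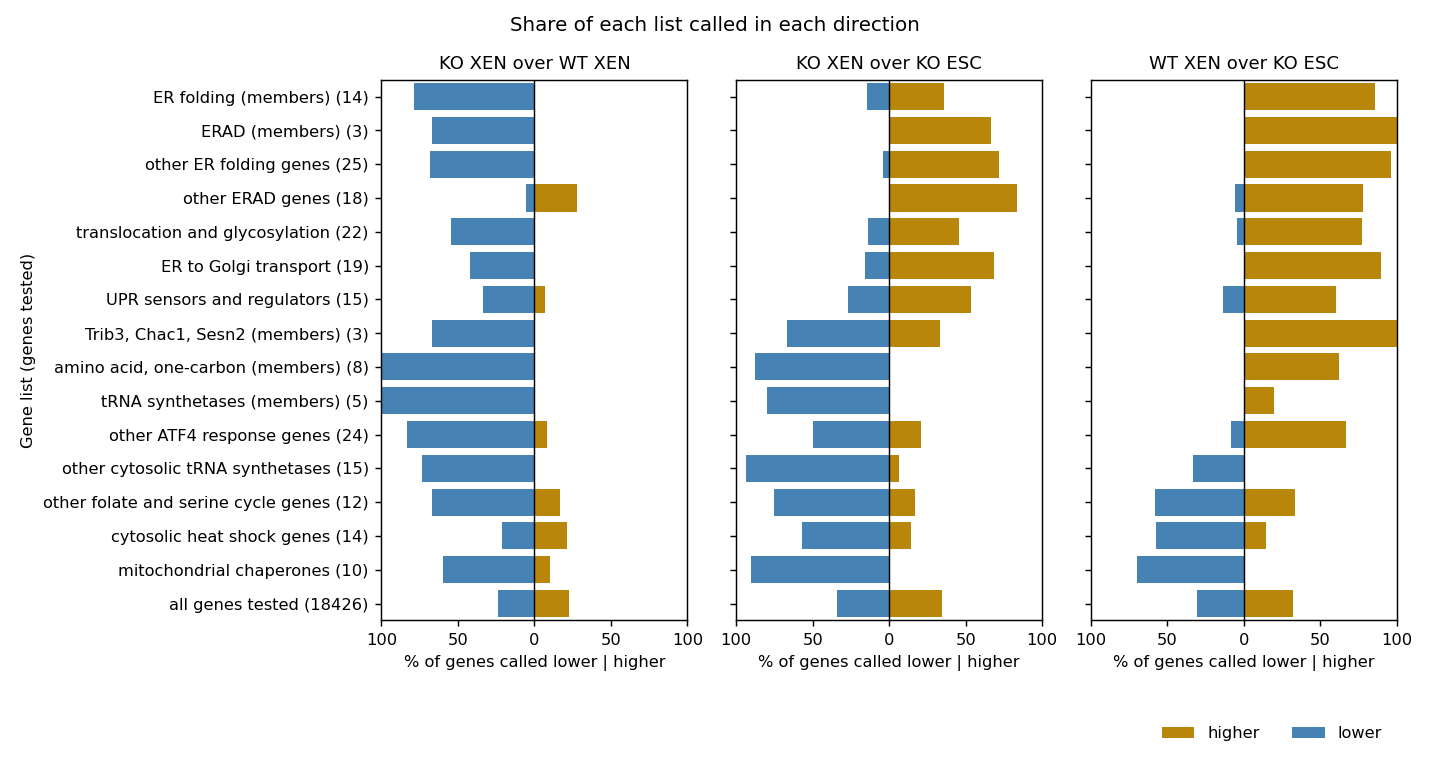
Percentage of the genes of each list called lower (left) or higher (right) in KO XEN over WT XEN, KO XEN over KO ESC and WT XEN over KO ESC, with the number of genes tested beside each list. Most ER lists are called lower in the first panel and higher in the third, the ERAD list of 18 is called higher in the third but mostly not called in the first, and the ATF4, synthetase and folate lists are called lower in the first and second panels.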

How the data were processed

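RNA was poly(A)-selected and sequenced after TruSeq library preparation with a reverse-stranded protocol, per the labels. The authors deposited raw counts per gene for 7 libraries. Per the submitters' processing notes, STAR 2.4.2a, featureCounts 1.4.5-p1 and mm10 were used. The annotation release, the filters and the strand setting of the counting are not given in the sources used here. Overlapping genes may therefore share reads or lose them. Symbols were taken from GENCODE M21 for 42462 of 43629 identifiers; the other 1167 held 0.153% of counts.

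The deposited counts were fitted with edgeR 4.0.16 (R 4.3.3): TMM scaling, filterByExpr by group, and one quasi-likelihood fit of 3 groups over 7 libraries, so that groups of 2 and 3 share the estimate of spread. P-values were adjusted by Benjamini-Hochberg over 18426 genes and called below 0.05. CPM use TMM-scaled library sizes; SE is the log2 fold change over the square root of F. The script was tested on simulated data.

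The members and the lists were chosen with earlier results of these data known. Every library is given for the 3 members of each role with the smallest adjusted p in KO XEN against WT XEN, for the factors, and for members whose call goes against their arm or changes sign; of each further list, up to 3 such genes and up to 2 against its majority are named. A gene picked by this rule among the ERAD genes is not reported here.

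Libraries of lines C4 and 5-3 come from the same cell lines in KO XEN and KO ESC, which pairs them; the line difference correlated over genes with r = 0.0797 between the stages. The libraries 5-3_1 and 5-3_2 differed by more than sampling noise (chi-square per degree of freedom 20.6) and were kept as 2. Alternatives were RLE, upper-quartile and total-count scaling, DESeq2 1.42.0, no filter, only the groups compared, line as a replicate block, both C4 libraries left out, 5-3_1 and 5-3_2 summed, and each library left out.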

Additional observations from a re-analysis of the deposited data

How the results depend on the processing

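The 111 member fold changes were recomputed under 16 alternatives, 1776 values in all: 1663 kept direction and side of the threshold, 62 lost and 12 gained a call, and 39, from 11 results not called at first, changed sign. With line as a replicate block no member's call changed, and 1 uncalled value changed sign (Creld2, WT XEN against KO ESC, 0.1382). With only the groups compared, 2 ATF4-arm genes instead of 1 were higher in KO XEN than in KO ESC; the second was Wars. Upper-quartile scaling ended the calls of Dnajc3 and Hyou1 in KO XEN against KO ESC, and of Hsp90b1, Dnajb9 and Shmt2 in WT XEN against KO ESC. Counting 5-3_1 and 5-3_2 as 1 library ended the calls of Atf4, Hyou1 and Dnajc3 in KO XEN against KO ESC, and the same 3 calls in WT XEN against KO ESC as upper-quartile scaling did. Against KO ESC, the all-gene median was -0.08 in KO XEN and -0.03 in WT XEN in the main fit. In KO XEN it was -0.10 (RLE), -0.19 (upper quartile), -0.15 (totals), 0.00 (DESeq2) and -0.35 (no filter). In WT XEN it was -0.05 (RLE), -0.20 (upper quartile), -0.12 (totals), -0.14 (DESeq2) and -0.105 (no filter). Of 90 recomputed medians of the 2 arms, 84 stayed within the spread between libraries and 0 changed sign.

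Leaving out one library at a time, KO XEN against WT XEN called 2511 to 4318 genes higher and 3154 to 5113 lower, with 12 to 15 ER-arm and 15 ATF4-arm genes lower; the lowest count of higher genes came without WT XEN B, and 2618 without KO XEN 5-3. KO XEN against KO ESC called 5268 to 6492 higher and 5115 to 6590 lower, with 4 to 8 ER-arm genes higher and 1 to 3 lower (4 and 1 without KO XEN 5-3), and 1 to 2 ATF4-arm genes higher (2 without WT XEN B) and 12 to 13 lower. WT XEN against KO ESC called 5216 to 6062 higher and 4308 to 5740 lower, with 13 to 16 ER-arm and 8 to 9 ATF4-arm genes higher.

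Sign changes of uncalled log2 fold changes were these; their cause was not tested. In KO XEN against KO ESC, leaving out both C4 libraries gave -0.0154 for Hspa5, -0.0348 for Pdia6 and -0.0433 for Sdf2l1. Upper-quartile scaling gave -0.0519 for Pdia6, -0.0726 for Sdf2l1 and -0.1144 for Phgdh, library totals -0.0090, -0.0288 and -0.0714 for the same genes, and no filter -0.0137 for Sdf2l1 and -0.0472 for Phgdh. Phgdh also gave -0.0185 with RLE, -0.0248 with DESeq2, -0.0132 with only the groups compared and -0.0133 with 5-3_1 and 5-3_2 summed. In WT XEN against KO ESC, Creld2 gave 0.0810 with 5-3_1 and 5-3_2 summed, Psat1 0.0160 without both C4 libraries, and upper-quartile scaling -0.0060 for Aars, -0.0420 for Gars and -0.0483 for Nars. Leaving out one library at a time, the values ran from -0.135 to 0.2675 for Atf4 (KO XEN against WT XEN). Against KO ESC they ran from -0.0683 to 0.1603 for Hspa5, -0.058 to 0.0749 for Pdia6, -0.1766 to 0.1355 for Sdf2l1 and -0.2774 to 0.191 for Phgdh in KO XEN, and from -0.2848 to 0.1768 for Creld2, -0.3225 to 0.2303 for Psat1 and -0.3912 to 0.0875 for Mthfd2 in WT XEN.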

Other observations

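Chaperones outside the ER were counted for comparison with the members. Of 14 cytosolic heat shock genes, 3 were higher and 3 lower in KO XEN than WT XEN, near the 22.3% higher and 23.9% lower of all genes. Against KO ESC, 2 of the 14 were higher and 8 lower in KO XEN, where 34.8% of all genes were higher and 34.3% lower. Hsp90aa1, the inducible cytosolic HSP90, had 114 and 125 CPM in KO XEN against 424 and 509 CPM in WT XEN, and 2852, 3019 and 2510.0 CPM in KO ESC, 3 groups that lay far apart (KO XEN over WT XEN -1.96 ± 0.17, adjusted p = 0.00022). Bag3, a partner of HSP70 in selective autophagy, ran the other way, with 116 and 126 CPM in KO XEN against 53.3 and 35.6 CPM in WT XEN, and 24.0, 20.7 and 19.2 CPM in KO ESC (1.44 ± 0.22, adjusted p = 0.00155). Hsph1, an HSP110 chaperone, gave -1.13 ± 0.24 (adjusted p = 0.00679) and Dnajb1, an HSP70 partner, 0.58 ± 0.14 (adjusted p = 0.0108).

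Of 10 mitochondrial chaperones and proteases, 6 were lower and 1 higher in KO XEN than in WT XEN, and 9 were lower and 0 higher than in KO ESC. Of the 10, 7 were lower in WT XEN than in KO ESC and 0 higher. Of all genes tested, 23.9% were lower in KO XEN than WT XEN. Against KO ESC, 34.3% of all genes were lower in KO XEN and 30.3% in WT XEN. Hspd1, the HSP60 of the matrix, had 225 and 159 CPM in KO XEN against 579 and 597 CPM in WT XEN, and 1186, 1803 and 1757 CPM in KO ESC (KO XEN over WT XEN -1.61 ± 0.25, adjusted p = 0.00171). Hspa9, the matrix HSP70, gave -1.01 ± 0.15 (adjusted p = 0.00131), Yme1l1, a protease of the inner membrane, -2.31 ± 0.22 (adjusted p = 0.000276), and Clpp, a matrix protease, 0.83 ± 0.22 (adjusted p = 0.0171).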
